A study of Mus musculus with 2 samples.

Results

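Respiratory complex I was described through 43 of the 32285 genes counted in CD8+ tumor-infiltrating lymphocytes (TIL), 36 encoded in the nucleus and 7 on the mitochondrial genome. Members were chosen by symbol alone, as genes starting with *Ndufa*, *Ndufb*, *Ndufc*, *Ndufs*, *Ndufv* or *mt-Nd*, without the *Ndufaf* assembly factors, *Ndufa4*, *Ndufa4l2* and symbols ending in -ps. *Ndufb1*, listed only under such a symbol, was thereby left out. All 43 members reached 10 unique molecular identifiers (UMIs) per 1000000 UMIs (CPM) as the mean of both libraries, a level reached by 6899 genes.

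CD8+ TIL came from B16 F0 melanoma tumors transplanted into male C57Bl/6J mice aged 16 weeks, either lean mice on normal chow (NC) or obese mice on western diet (WD). TIL were enriched with CD8 magnetic beads, sorted on CD8 staining and profiled by single-cell RNA sequencing of transcript 3′ ends. There was 1 library for each diet, and the number of mice pooled in each is not given in the sources used here, so diet and library cannot be told apart and no test between diets was possible. Each difference below is a log2 ratio of CPM of summed UMIs with its 95% exact conditional binomial interval, and each level has an exact Poisson interval. Both cover counting error only. Since each UMI counts 1 captured 3′ end with no division by transcript length, levels were compared between cells and libraries but not ranked between genes.

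A cell was kept where mitochondrial genes took less than 7.5% of its UMIs and its depth lay between 500 and 50000 UMIs, which left 2456 cells and 27815785 UMIs for lean and 2289 cells and 28705830 UMIs for obese mice. The median cell held 7958 UMIs in the lean and 9103 in the obese library, and 4 cell barcodes occurred in both. UMIs of any of 6 T cell markers (*Cd8a*, *Cd8b1*, *Cd3d*, *Cd3e*, *Cd3g*, *Trac*) were seen in 99.7% and 99.6% of cells, while 6 melanoma markers summed to 1.22 and 1.43 CPM. B cell markers were seen in 25.6% and 38.9% of cells (40.9 and 64.7 CPM) and NK cell markers in 22.0% and 31.5% (32.2 and 51.7 CPM). Clustering without the members used the lowest resolution tried, 0.15, that gave at least 6 clusters, so their number was set in advance. It gave 6 clusters. Of these, 978 cells were naive- or memory-like (with *Satb1* and *Lef1* among the leading genes), 1061 proliferating-like (*Pclaf*, *Birc5*, *Stmn1*), 912 effector-like (*Lgals3*, *Prf1*, *Lag3*) and 1211 interferon-stimulated-like (*Ifit3*, *Ifit1*, *Isg15*, *Ccl5*). At a finer resolution, 1046 of the interferon-stimulated-like cells fell in a cluster led by *Ccl5* that carried no name. Only 133 of them fell in the finer interferon-stimulated-like cluster, so the name of this state describes few of its cells. Of the effector-like cells, 200 fell in a finer cluster named naive- or memory-like. That name rests on 3 markers among its 50 leading genes, which also include the effector marker *Xcl1*. The lean library held 611 effector-like and 482 interferon-stimulated-like cells and the obese library 301 and 729, so values over all cells mix states in different proportions. The other 553 and 30 cells formed an unnamed cluster of low depth, with a median of 2305 and 2392 UMIs, and a dendritic- or myeloid-like one.

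Complex I is the entry point of the respiratory chain. It oxidizes NADH in the mitochondrial matrix, passes the electrons to ubiquinone and pumps protons across the inner membrane. Its core subunits carry out this chemistry: the nuclear core forms the matrix arm with the flavin and iron-sulfur clusters, and the mitochondrial core forms the proton-pumping membrane arm. Around them sit accessory subunits, all encoded in the nucleus, that stabilize the enzyme. T cells that leave the resting state are known to enlarge their mitochondrial content and respiration along with glycolysis.

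All 7 mitochondrial members lie close together on a compact genome, and some of them share bases at their borders. In the GRCm38 annotation of GENCODE M21, *mt-Nd4l* (chrM:9877-10173, plus strand, a single exon) runs into *mt-Nd4* (chrM:10167-11544, plus strand) with 7 shared bases, and the pair is known to be carried on a single mature RNA. *mt-Nd5* (chrM:11742-13565, plus strand) and *mt-Nd6* (chrM:13552-14070, minus strand, the only member on that strand of this genome) share 14 bases at their ends. Both borders are printed because values of these genes are given below, with the shared bases in capitals. Whether the shared bases affect how UMIs are assigned was not tested.
mt-Nd4l into mt-Nd4, chrM:10137-10203, plus strand: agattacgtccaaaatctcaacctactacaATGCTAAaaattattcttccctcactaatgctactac
mt-Nd5 end, chrM:13536-13565, plus strand: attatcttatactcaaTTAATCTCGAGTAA

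In CPM, the nuclear sum was lower and the mitochondrial sum higher in naive- or memory-like cells than in the other 3 named states. Against interferon-stimulated-like cells the direction of the median nuclear member depended on the scaling, as given below. The 36 nuclear genes summed to 5280.2 CPM (5213 to 5348) in naive- or memory-like cells of the lean library, 6237 CPM in interferon-stimulated-like, 7867 CPM in effector-like and 8641 CPM (8587 to 8695) in proliferating-like cells. In the obese library the same states held 4737, 5823, 7733 and 8412 CPM, in the same order, and no intervals of neighbouring states overlapped. The 7 *mt-Nd* genes were instead highest in naive- or memory-like cells, with 6123 CPM in the lean and 6560.3 CPM in the obese library. The other 3 states held 4157, 3217 and 3654 CPM in the lean library (interferon-stimulated-like, effector-like, proliferating-like) and 4673, 4459 and 4506 CPM in the obese library.

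**Figure D1:**
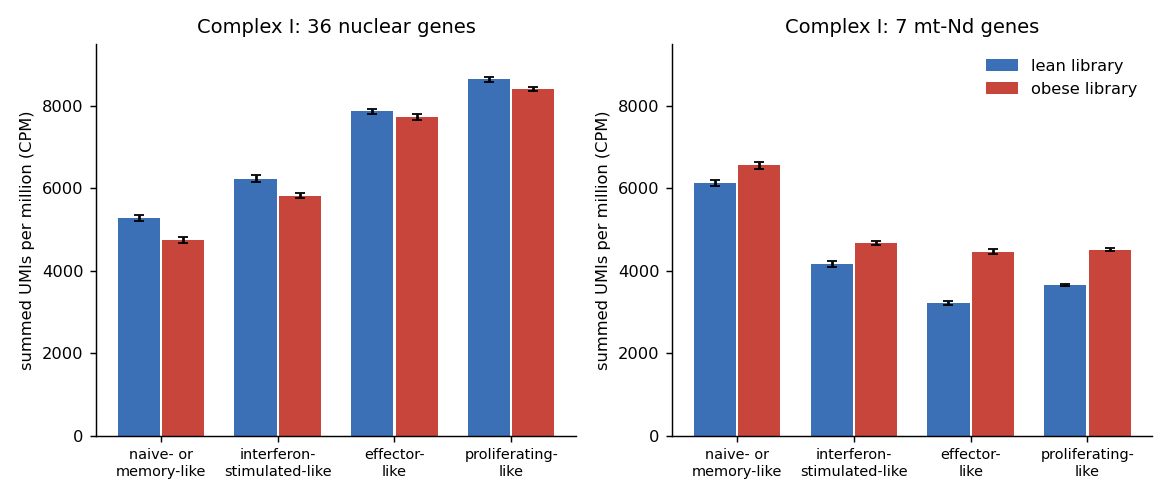
Summed CPM (y axis) of the 36 nuclear and the 7 mitochondrial complex I genes in 4 cell states (x axis) of the lean and obese libraries, with exact 95% Poisson intervals. Nuclear sums stood lowest and mitochondrial sums highest in naive- or memory-like cells of both libraries.

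The ratio of mitochondrial to nuclear complex I UMIs does not depend on how the libraries are scaled. It was 1.16 in naive- or memory-like cells of the lean library, against 0.423 in proliferating-like, 0.409 in effector-like and 0.667 in interferon-stimulated-like cells. In the obese library the ratio was 1.39, 0.536, 0.577 and 0.802 in these states. The unnamed cluster of low depth had the highest ratio, 2.66 and 2.40, and the highest median share of mitochondrial UMIs, 3.45% and 3.83%.

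Per cell, nuclear members differed more between proliferating-like and naive- or memory-like cells than in CPM. Proliferating-like cells held more UMIs in all, with a median of 22262.5 and 22807 UMIs against 7472.5 and 7870 in naive- or memory-like cells. A mean of 207 and 205 nuclear complex I UMIs was found in a proliferating-like cell of the lean and obese library, and 41.5 and 39.5 in a naive- or memory-like cell. An effector-like cell held 105.7 and 119.7. An interferon-stimulated-like cell held 34.5 and 42.4, so in the lean library it held fewer than a naive- or memory-like cell, unlike in CPM. Mitochondrial members held 87.4 and 109.6 UMIs in a proliferating-like cell and 48.2 and 54.7 in a naive- or memory-like cell. So in proliferating-like cells the mitochondrial members were lower as a share of UMIs but not in number per cell. In interferon-stimulated-like cells, with 22.99 and 33.98 *mt-Nd* UMIs, they were lower on both counts, and effector-like cells held 43.2 and 69.0. With each cell thinned to 2000 UMIs, the median cell held 17 and 16 nuclear complex I UMIs if proliferating-like, 15 and 15 if effector-like, 12 and 11 if interferon-stimulated-like and 10 and 9 if naive- or memory-like. For the *mt-Nd* genes these medians were 7 and 8, 6 and 8, 8 and 9, and 12 and 13. Thinning left out 126 and 112 cells with fewer UMIs, of which 124 and 106 were in the unnamed cluster.

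**Figure D2:**
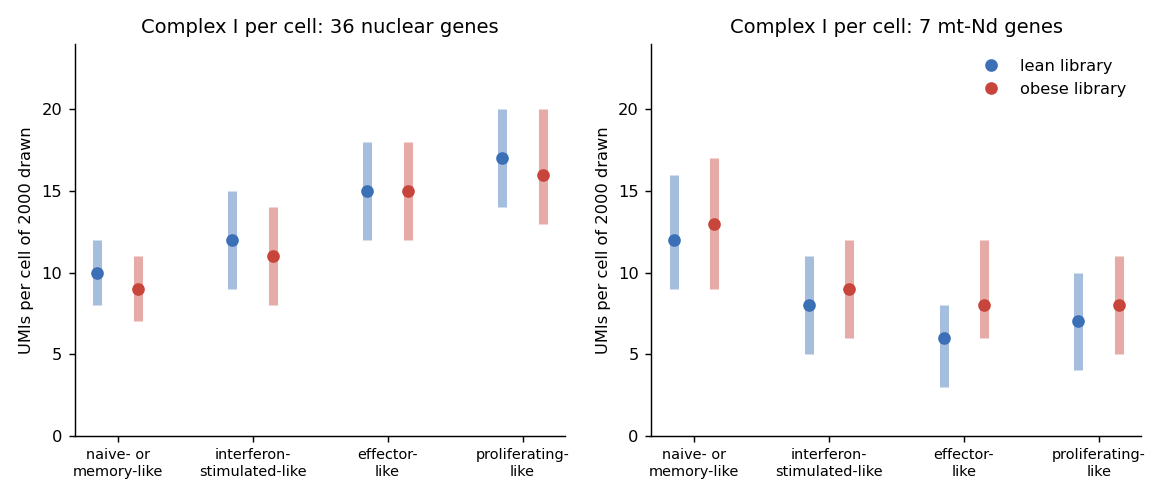
UMIs per cell of the nuclear and mitochondrial complex I genes (y axis, of 2000 UMIs drawn from each cell) in 4 cell states of both libraries (x axis). Points are medians over cells and bars run from the lower to the upper quartile, so the spread is among cells of 1 library. Median nuclear UMIs went from 10 and 9 in naive- or memory-like to 17 and 16 in proliferating-like cells, while median *mt-Nd* UMIs went from 12 and 13 to 7 and 8.

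Between proliferating-like and naive- or memory-like cells, the nuclear sum differed by a log2 ratio of 0.71 (0.69 to 0.73) in the lean and 0.83 (0.80 to 0.85) in the obese library. Of the 36 nuclear members, 25 were higher by 0.5 or more in both libraries and 0 were lower by as much, beside 41.6% of all genes tested that were higher and 10.9% that were lower. The median log2 ratio was 0.77 over the nuclear members and 0.46 over all genes, so a large part of the difference was shared with other genes. Ribosomal protein genes took 44.9% of UMIs in naive- or memory-like cells of both libraries and 29.1% and 29.3% in proliferating-like cells. With mitochondrial and ribosomal protein genes taken out of the total, the nuclear sums differed by 0.31 and 0.43, and 11 of the 36 members were higher and 1 was lower, beside 23.5% and 21.2% of all genes. Scaled by the TMM factors of edgeR, which moved all log2 ratios by 0.23 and 0.24, the sums differed by 0.48 and 0.59, with 17 members higher and 1 lower beside 30.4% and 16.4% of all genes.

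Nuclear core genes build the chain of electron carriers. *Ndufv2* and *Ndufs8*, which hold iron-sulfur clusters, were among those past the fold in both libraries. Both kept this call with TMM factors but lost it with mitochondrial and ribosomal protein genes out of the total. *Ndufv2* went from 103 and 86.3 CPM in naive- or memory-like to 191 and 187 CPM in proliferating-like cells, log2 ratios of 0.90 (0.75 to 1.05) in the lean and 1.12 (0.94 to 1.30) in the obese library. *Ndufs8* went from 85.1 and 68.2 to 142 and 146 CPM, log2 ratios of 0.74 and 1.10. For both genes the difference was wider in the obese library. Log2 ratios of core genes that did not pass the fold in both libraries were 0.28 and 0.51 for *Ndufs1*, the large iron-sulfur subunit, 0.45 and 0.65 for *Ndufs3*, 0.36 and 0.57 for *Ndufs7*, and 0.48 and 0.57 for *Ndufv1*, which binds NADH and flavin. In the lean library the sign turned for *Ndufs1* (−0.12) and *Ndufs7* (−0.043) with mitochondrial and ribosomal protein genes out of the total, and for *Ndufs1* (−1.08) and *Ndufv1* (−0.079) with cells thinned to 1000 UMIs, where *Ndufs1* also turned in the obese library (−0.88). Values at 1000 UMIs per cell come from a single random draw of far fewer UMIs, so their counting error is wider, and no interval is given for them here. *Ndufs1* was the least counted nuclear core gene, with 773 and 859 UMIs, and its gene body overlaps the opposite-strand gene *Eef1b2*, a translation factor gene of 42010 and 42559 UMIs, by 9 bases. A longer overlap, of 14695 bases, is with *Ino80dos*, also on the opposite strand, which held 63 and 69 UMIs. The sources used here do not say whether strand was used in counting, and an effect of either overlap on *Ndufs1* was not tested.

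Among accessory genes, 15 of 19 of the membrane arm and 6 of 9 of the matrix arm were higher past the fold in both libraries, beside the 41.6% of all genes, with median log2 ratios of 0.86 and 0.61. These counts depended on the scaling. With mitochondrial and ribosomal protein genes out of the total, the matrix arm kept only *Ndufa12* and *Ndufs6*, beside 23.5% of all genes. The membrane arm then kept *Ndufa11*, *Ndufb6*, *Ndufb7*, *Ndufb8*, *Ndufb9*, *Ndufc1*, *Ndufc2* and *Ndufs5*. With TMM factors the matrix arm kept *Ndufa5* as well, beside 30.4% of all genes. The 3 highest nuclear members were *Ndufb8*, *Ndufab1* and *Ndufc2*. *Ndufb8*, a membrane arm subunit, stood at 123 and 95.7 CPM in naive- or memory-like cells and at 351 and 342 CPM in proliferating-like cells, log2 ratios of 1.52 (1.39 to 1.65) and 1.84. *Ndufab1*, the mitochondrial acyl carrier protein that also serves fatty acid and lipoate synthesis, went from 113 and 110 CPM to 301 and 274 CPM, log2 ratios of 1.41 and 1.31. *Ndufc2* went from 121 and 105 CPM to 265 and 271 CPM, log2 ratios of 1.13 and 1.37. All 3 stayed past the fold under both other scalings named above.

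*Ndufa6*, a matrix arm accessory subunit, was the only nuclear member with a log2 ratio below 0 in both libraries. It stood at 239 and 247 CPM in naive- or memory-like cells and at 157 and 175 CPM in proliferating-like cells. The log2 ratios were −0.60 (−0.71 to −0.49) and −0.497 (−0.61 to −0.38), so in CPM *Ndufa6* just missed the fold in the obese library. Under both other scalings it was lower past the fold in both libraries. As a share of nuclear complex I UMIs, which needs no scaling, *Ndufa6* made up 4.52% (4.26 to 4.80, exact binomial interval) of naive- or memory-like and 1.82% (1.74 to 1.91) of proliferating-like cells in the lean library, and 5.21% and 2.08% in the obese library. *Ndufb8* went the other way, from 2.32% and 2.02% to 4.06% and 4.07%. Its effector-like shares were 3.67% and 3.48%. Next lowest after *Ndufa6* were *Ndufb11*, with log2 ratios of 0.23 and 0.18, and *Ndufa7*, with 0.23 and 0.34, whose signs both turned with mitochondrial and ribosomal protein genes out of the total, to −0.17 and −0.22 for *Ndufb11* and −0.17 and −0.06 for *Ndufa7*. *Ndufb11* in the obese library also turned under TMM scaling, to −0.06.

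**Figure D3:**
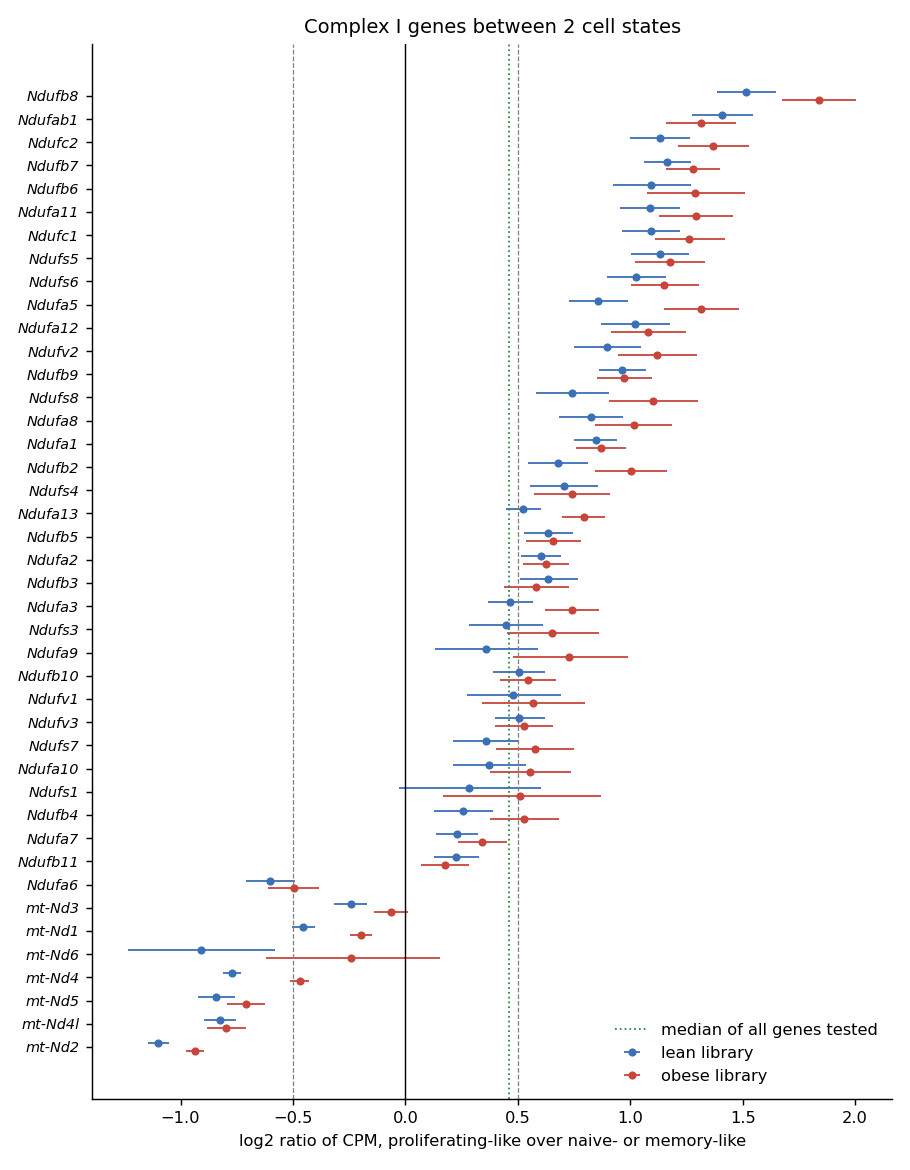
Log2 ratio of CPM between proliferating-like and naive- or memory-like cells (x axis) for complex I genes (y axis) in the lean and obese libraries, with 95% counting intervals. Dashed lines mark the fold of 0.5 either way, and the dotted line the median of all genes tested, 0.46. *Ndufb8* lies farthest to the right, *Ndufa6* lies left of 0 and the *mt-Nd* genes are all left of 0.

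Promoters of *Ndufb8* and *Ndufa6*, the members at both ends of this range, are printed from RefSeq on GRCm38.p6, from 250 bases before to 50 after the annotated start. They were searched on both strands, together with those of 32 of the 36 nuclear members that had an entry, for 4 motifs of factors linked to respiratory genes. These were GCGCATGC for NRF1, CCGGAAG for ETS factors such as GABP, AAGATGGC for YY1 and CCAAT for the CCAAT box. Capitals mark matches, which overlap no other motif here.
Ndufb8, chr19:44555393-44555692, minus strand: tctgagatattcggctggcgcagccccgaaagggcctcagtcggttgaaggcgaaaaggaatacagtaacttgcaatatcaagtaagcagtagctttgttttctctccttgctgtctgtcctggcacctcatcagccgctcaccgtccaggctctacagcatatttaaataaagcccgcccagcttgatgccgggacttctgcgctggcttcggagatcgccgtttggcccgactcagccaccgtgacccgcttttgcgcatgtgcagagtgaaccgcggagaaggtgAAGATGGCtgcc
Ndufa6, chr15:82354242-82354541, minus strand: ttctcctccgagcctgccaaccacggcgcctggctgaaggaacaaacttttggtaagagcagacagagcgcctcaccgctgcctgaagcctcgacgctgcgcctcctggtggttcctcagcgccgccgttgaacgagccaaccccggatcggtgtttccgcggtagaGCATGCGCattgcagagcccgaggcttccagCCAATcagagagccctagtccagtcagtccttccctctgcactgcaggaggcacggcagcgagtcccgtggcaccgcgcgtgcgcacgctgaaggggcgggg
The *Ndufb8* window held the YY1 letters close to its end, and the *Ndufa6* window held an NRF1 match, read on the other strand, and a CCAAT box. Over the 32 members, 7 (21.9%) held the YY1 letters, 3 (9.38%) the NRF1 letters, 4 (12.5%) the ETS letters and 10 (31.2%) a CCAAT box. Of all 27025 genes with a promoter entry, 3.19%, 3.05%, 9.93% and 41.1% held these. A match is a run of letters and not a measured binding site.

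The mitochondrial members differed between the same states in the other direction. Their sum was lower in proliferating-like than in naive- or memory-like cells by a log2 ratio of −0.74 (−0.77 to −0.72) in the lean and −0.54 (−0.56 to −0.52) in the obese library. In both libraries *mt-Nd2*, *mt-Nd4l* and *mt-Nd5* were lower past the fold, beside the 10.9% of all genes, and all 7 had log2 ratios below 0, although in the obese library the intervals of *mt-Nd3* (−0.14 to 0.01) and *mt-Nd6* (−0.62 to 0.15) spanned 0. *mt-Nd2* had the widest difference, from 1651 and 2076 CPM to 772 and 1085 CPM, log2 ratios of −1.10 (−1.14 to −1.05) and −0.94 (−0.98 to −0.89). *mt-Nd3* had the narrowest, from 493 and 529 CPM to 417 and 506 CPM, log2 ratios of −0.24 and −0.06. Without mitochondrial and ribosomal protein genes in the total, the sums differed by −1.14 and −0.94 and 6 of the 7 were lower past the fold, beside the 21.2% of all genes.

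The proportions of the 7 among themselves also differed between states. *mt-Nd2* made up 27.0% (26.4 to 27.5) of *mt-Nd* UMIs in naive- or memory-like and 21.1% (20.7 to 21.5) in proliferating-like cells of the lean library, and 31.6% and 24.1% in the obese library. *mt-Nd1* made up 18.3% and 22.4% in the lean and 17.7% and 22.5% in the obese library. *mt-Nd* genes together took 22.5% of all UMIs of the mitochondrial genome in naive- or memory-like, 20.1% in proliferating-like and 17.8% in effector-like cells of the lean library, and in the obese library 20.03% in naive- or memory-like and 18.6% in proliferating-like cells. The other 6 genes of that genome summed to log2 ratios of −0.54 and −0.41 between proliferating-like and naive- or memory-like cells.

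Effector-like cells differed from naive- or memory-like ones in the same directions. The nuclear sum differed by 0.58 and 0.71 and the mitochondrial sum by −0.93 and −0.56. Past the fold in both libraries were 20 of the 36 nuclear members higher and 0 lower, beside 33.2% of all genes higher and 6.87% lower, and 3 of the 7 *mt-Nd* genes lower. Without mitochondrial and ribosomal protein genes in the total, 3 nuclear members were higher and all 7 *mt-Nd* genes lower, beside 16.5% and 16.2% of all genes. Those 3 were *Ndufb7*, *Ndufb8* and *Ndufb9* of the membrane arm, a group chosen after its values were seen. In interferon-stimulated-like cells the nuclear sum differed from naive- or memory-like cells by 0.24 and 0.30. Past the fold were 1 member higher, *Ndufb7*, and 0 lower, beside 22.6% of all genes higher and 2.68% lower. The median over the 36 was 0.23, below the 0.34 over all genes. With TMM factors it was −0.08, beside 0.04 over all genes. Without mitochondrial and ribosomal protein genes in the total it was −0.12, beside −0.01. Under both scalings 0 nuclear members were past the fold either way. The mitochondrial sum of interferon-stimulated-like cells differed by −0.56 and −0.49, with 3 of the 7 lower past the fold.

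Proliferating-like and effector-like cells were compared directly as well. The nuclear sums differed by 0.14 (0.12 to 0.15) in the lean and 0.12 (0.10 to 0.14) in the obese library, and the mitochondrial sums by 0.18 and 0.02. *Ndufab1*, with log2 ratios of 0.77 and 0.75, and *Ndufa5*, a matrix arm accessory gene, with 0.71 and 0.70, were the 2 nuclear members higher past the fold, beside 13.1% of all genes. No member was lower past the fold in both libraries, beside 5.38% of all genes.

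Between the libraries, the nuclear members were close to each other over all cells. They summed to 7465 CPM (7433 to 7497) in the lean and 7226 CPM (7195 to 7257) in the obese library, a log2 ratio of −0.05 (−0.06 to −0.04) for obese over lean. The value was −0.092 with TMM factors, −0.080 with equal weight of the 4 named states, −0.017 over all deposited cells and −0.024, with an interval that spanned 0, at 1000 UMIs per cell. None of the 36 differed by 0.25 or more in either direction, beside 12.7% of all genes tested that were higher and 6.09% that were lower, and their median was −0.03 beside 0.03 over all genes. Nuclear genes of complexes II to V behaved alike, with 0 of 38 past the fold and a median of −0.01. For genes near 10 CPM the fold alone does not separate counting noise from a difference.

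Among nuclear core genes, *Ndufs3* had the lowest ratio, with 108 CPM (104 to 112) in the lean and 93.7 CPM (90.2 to 97.3) in the obese library, −0.20 (−0.28 to −0.13). Ratios of other core genes were 0.11 for *Ndufs1*, −0.03 for *Ndufs7*, 0.01 for *Ndufs8*, 0.03 for *Ndufv1* and −0.02 for *Ndufv2*, and the interval of each spanned 0. Under 1 or more alternatives the sign of *Ndufs1*, *Ndufs8*, *Ndufv1* and *Ndufv2* turned. Lower together with *Ndufs3* were *Ndufb9*, 334 against 292 CPM (−0.19, −0.24 to −0.15), and *Ndufs5*, 226 against 201 CPM (−0.17, −0.22 to −0.12), both of the membrane arm. At the other end stood 3 accessory genes of the matrix arm. Of the accessory genes, however, 6 of 9 of that arm and 16 of 19 of the membrane arm were below 0. *Ndufa12* had 143 CPM in the lean and 163 CPM in the obese library (0.19, 0.13 to 0.25), *Ndufa9*, an accessory subunit near the ubiquinone site, 55.7 against 62.6 CPM (0.17, 0.07 to 0.27), and *Ndufa6* 193 against 211 CPM (0.13, 0.08 to 0.18). For these 6 the levels differed by more than the counting error, and none reached the fold. *Ndufa6* turned to −0.0095 with cells thinned to 1000 UMIs.

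The *mt-Nd* genes summed to 4121 CPM (4098 to 4145) in the lean and 4931 CPM (4906 to 4957) in the obese library, a log2 ratio of 0.26 (0.25 to 0.27). This sum depends on how cells are weighed, since it was 0.16 as a mean over cells and 0.15 with cells thinned to 1000 UMIs. It was 0.25 with cells under 5% mitochondrial and over 1000 UMIs, and 0.28 over all deposited cells. Of the 7 genes 4 were higher past the fold and 1 was lower, beside the 12.7% and 6.09% of all genes. Of the 4, *mt-Nd1* and *mt-Nd3* had intervals that reached below the fold. TMM factors lowered all log2 ratios between libraries by 0.045, which takes *mt-Nd1* and *mt-Nd3* under the fold. With these factors the sum was 0.21, also under it. The filter on cells caps their level, because cells with 7.5% or more mitochondrial UMIs, 158 in the lean and 213 in the obese library, were left out. Those cells held 28242 and 30578 CPM of *mt-Nd* genes and 2527 and 2599 CPM of nuclear complex I genes. The median share of mitochondrial UMIs in the kept cells was 2.10% in the lean and 2.64% in the obese library, and its part in this result was not tested.

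Single *mt-Nd* genes differed unequally. *mt-Nd2* had 960 CPM in the lean and 1280.2 CPM in the obese library (0.42, 0.39 to 0.44), and *mt-Nd4* 1186 against 1489 CPM (0.33, 0.31 to 0.35). *mt-Nd3* had 403 against 486 CPM (0.27, 0.23 to 0.31) and *mt-Nd1* 850 against 1015 CPM (0.26, 0.23 to 0.28). These 4 encode pumping and connecting parts of the membrane arm. *mt-Nd5*, the distal pump, had 316 against 342 CPM (0.11, 0.07 to 0.15), within the fold, and turned to −0.035 with cells thinned to 1000 UMIs. *mt-Nd6*, from 564 and 631 UMIs, had 20.3 against 22.0 CPM (0.12, −0.05 to 0.28), a difference within counting error, which was −0.13 as a mean over cells.

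*mt-Nd4l* stood apart from the other six, with 387 CPM (379 to 394) in the lean and 298 CPM (292 to 304) in the obese library, a log2 ratio of −0.38 (−0.42 to −0.33). Its neighbour *mt-Nd4*, which starts before *mt-Nd4l* ends in the sequence printed above, was higher. Of the UMIs of both genes, *mt-Nd4l* held 24.6% (24.18 to 24.99, exact binomial interval) in the lean and 16.7% (16.35 to 16.998) in the obese library. Summed, the pair differed by 0.18 (0.17 to 0.20), under the fold. The pair is known to be carried on a single mature RNA, and each UMI counts a captured 3′ end. UMIs of *mt-Nd4l* therefore cannot be read as the level of a separate transcript. What divides the UMIs between both genes was not tested. The lower share held in each state: 25.4% against 19.7% in naive- or memory-like, 25.5% against 16.6% in interferon-stimulated-like, 23.3% against 14.9% in effector-like and 24.7% against 16.3% in proliferating-like cells. Its UMIs were spread over many cells, since *mt-Nd4l* was seen in 87.4% and 84.8% of cells and the 10 cells with the most held 2.76% and 2.71% of its UMIs. Another pair of neighbours on this genome, *mt-Atp8* and *mt-Atp6* of complex V, showed the same split. *mt-Atp8* had 538 against 414 CPM (−0.38) and *mt-Atp6* 4563 against 6774 CPM (0.57). *mt-Co3*, next to *mt-Atp6* in map order, was higher like it (0.65).

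**Figure D4:**
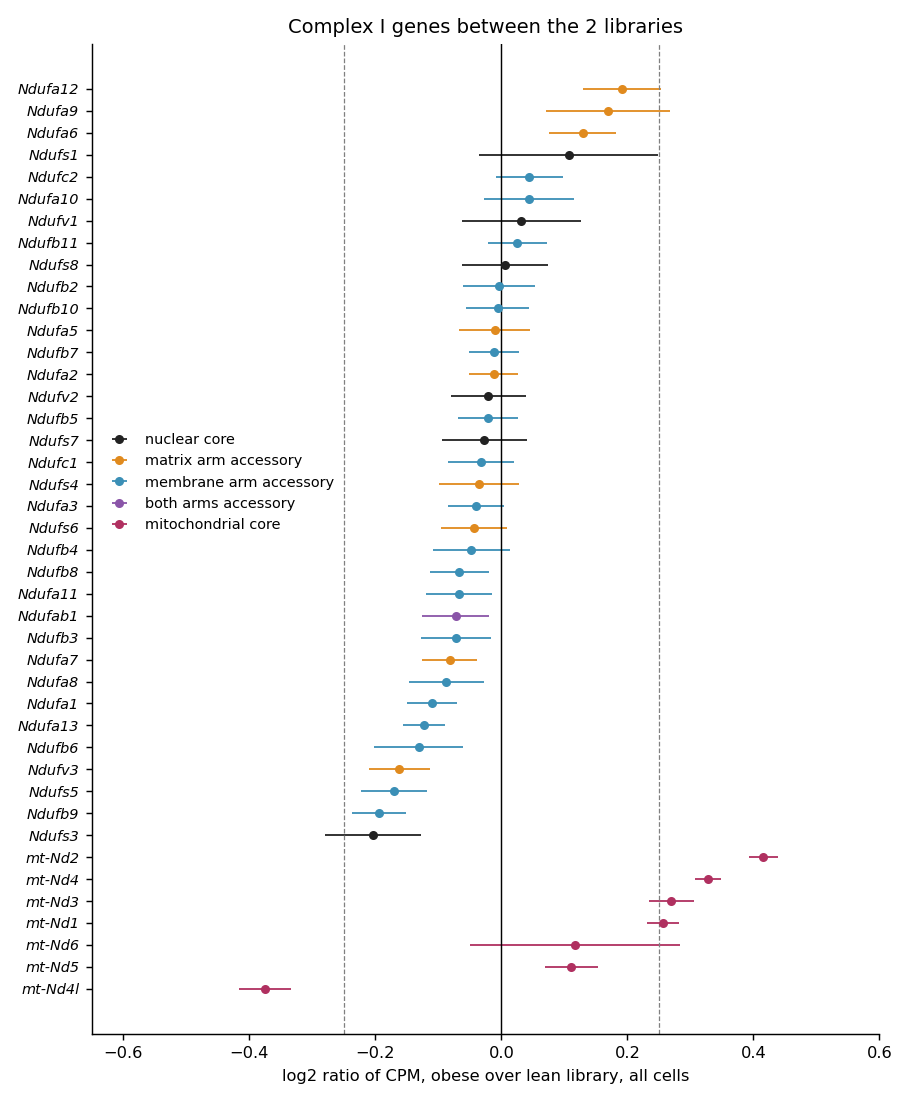
Log2 ratio of CPM between the obese and lean libraries over all cells (x axis) for complex I genes (y axis), coloured by role, with 95% counting intervals. Dashed lines mark the fold of 0.25 either way. The points of the nuclear genes drawn lie between the lines, those of *mt-Nd1*, *mt-Nd2*, *mt-Nd3* and *mt-Nd4* to the right of them and that of *mt-Nd4l* to the left.

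Within cell states, the mitochondrial sum was higher in the obese library in each of the 4 named ones, by 0.47 (0.44 to 0.50) in effector-like, 0.30 (0.28 to 0.32) in proliferating-like, 0.17 (0.14 to 0.20) in interferon-stimulated-like and 0.10 (0.07 to 0.12) in naive- or memory-like cells. The nuclear sum was slightly lower in each, by −0.02, −0.04, −0.10 and −0.16 in that order, although in effector-like cells it was 0.01 without mitochondrial and ribosomal protein genes in the total. The states held different cells in each library. A finer cluster named naive- or memory-like from few markers made up 15.2% of lean and 35.5% of obese effector-like cells. The smaller of 2 finer clusters made up 21.1% and 46.3% of naive- or memory-like cells. Within the largest finer cluster of each state, an alternative added after seeing the data, the mitochondrial sums differed by 0.46, 0.27, 0.16 and 0.12 and the nuclear sums by −0.0021, −0.013, −0.097 and −0.11, in the order above. Over all cells of a state, the ratio of both sums, mitochondrial over nuclear, was higher in the obese library by 0.50, 0.34, 0.27 and 0.26 on the log2 scale.

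Among the 4 named states, effector-like cells had the widest difference in the mitochondrial members. There 6 of the 7 were higher past the fold and 0 lower, beside 20.7% of all genes higher and 13.7% lower. Of the 6, *mt-Nd6* had an interval that spanned 0 (0.30, −0.12 to 0.72), from 120 and 84 UMIs. *mt-Nd4* went from 939 to 1431 CPM (0.61, 0.56 to 0.66), *mt-Nd2* from 724 to 1078 CPM (0.57, 0.52 to 0.63), *mt-Nd3* from 329 to 466 CPM (0.50) and *mt-Nd1* from 673 to 890 CPM (0.40). Beside them, the median share of mitochondrial UMIs in these cells was 1.70% in the lean and 2.55% in the obese library, and the median depth 11209 and 13880 UMIs. Effector markers summed to 10026 and 6819 CPM in these cells and naive or memory markers to 477 and 713 CPM. The part of these values in the difference was not tested. Within the finer effector-like cluster of 517 and 194 cells, the *mt-Nd* genes summed to 3019 and 4168 CPM (0.46, 0.43 to 0.50). Within the finer one named naive- or memory-like, of 93 and 107 cells, they summed to 4495 and 5132 CPM (0.19, 0.14 to 0.24). At 2000 UMIs per cell, the mean effector-like cell held 6.25 and 9.13 *mt-Nd* UMIs and 15.4 and 14.9 nuclear ones.

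Nuclear members were past the fold in effector-like cells only for *Ndufs1*, from 26.2 to 33.1 CPM on 215 and 154 UMIs (0.34, 0.03 to 0.64). In interferon-stimulated-like cells *Ndufs1* was past the fold the other way, from 25.5 to 21.1 CPM on 68 and 112 UMIs, with an interval that spanned 0 (−0.27, −0.72 to 0.18). The difference between these 2 states was not tested.

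In proliferating-like cells 1 nuclear member was higher, *Ndufa9*, from 59.1 to 71.8 CPM (0.28, 0.14 to 0.42), and 0 were lower, beside 13.8% and 8.09% of all genes. Of the *mt-Nd* genes 4 were higher and 1 was lower. *mt-Nd2* led with 0.49, followed by *mt-Nd4* with 0.38 (1031 and 1337 CPM), and *mt-Nd4l* had −0.37.

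In interferon-stimulated-like cells 0 nuclear members were higher and 3 lower, *Ndufs3* (103 and 75.4 CPM, −0.45, −0.68 to −0.22), *Ndufa8* (−0.29) and *Ndufs1*, beside 20% and 15.4% of all genes. Of the *mt-Nd* genes 3 were higher and 1, *mt-Nd4l* (−0.50), was lower.

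Of the 4 named states, naive- or memory-like cells held the most nuclear members past the fold, with 0 higher and 10 of 36 lower, beside 19% of all genes higher and 19.2% lower. The median over the 36 was −0.17 and over all genes −0.01. *Ndufa5* had 132 CPM in the lean and 94.8 CPM in the obese library (−0.48, −0.68 to −0.28), *Ndufb8* 123 against 95.7 CPM (−0.36, −0.56 to −0.16) and *Ndufs3* 86.8 against 68.2 CPM (−0.35, −0.59 to −0.11). The others were *Ndufa3*, *Ndufa11*, *Ndufa13*, *Ndufb4*, *Ndufb6*, *Ndufs5* and *Ndufs8*, with ratios from −0.36 to −0.25. Nuclear genes of complexes II to V had 7 of 38 lower and 0 higher in these cells, with a median of −0.15. Among *mt-Nd* genes, *mt-Nd2* was higher (0.33), and *mt-Nd4l* (−0.40) and *mt-Nd6* (−0.51) were lower.

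**Figure D5:**
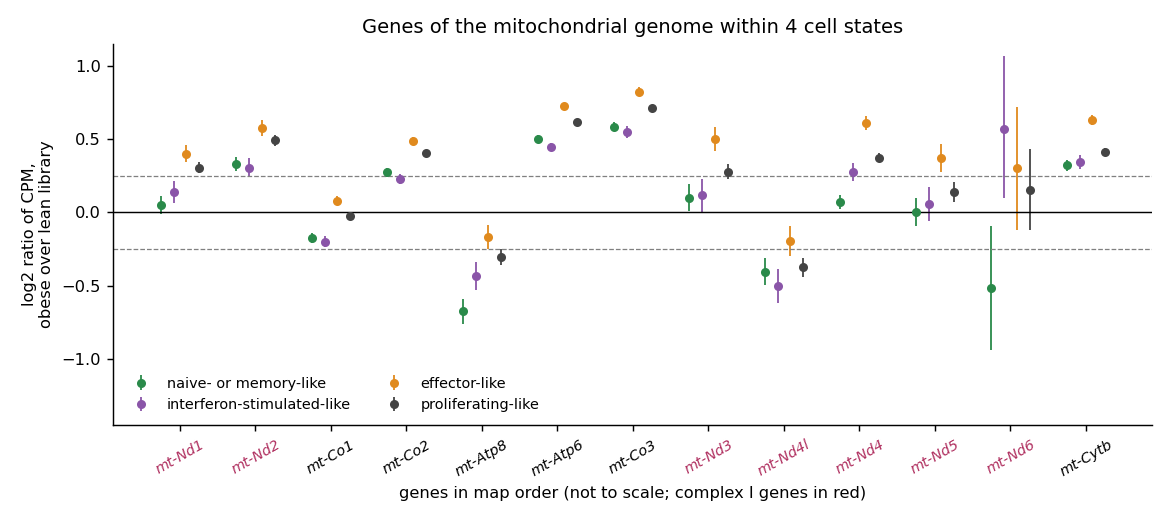
Log2 ratio of CPM between the obese and lean libraries (y axis) for the 13 protein-coding genes of the mitochondrial genome in map order (x axis), within 4 cell states, with 95% counting intervals and dashed lines at 0.25 either way. *mt-Nd4l* and *mt-Atp8* lie below 0 in each state shown, and effector-like cells have the highest ratio for each gene but *mt-Nd6*.

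Genes that build complex I or act on it gave a background for these values. Of 15 assembly factors tested of 18 listed, 9 were higher past the fold in proliferating-like against naive- or memory-like cells and 0 lower, beside the 41.6% and 10.9% of all genes, with a median of 0.82. Between libraries 1 of the 15 was lower past the fold and 0 were higher, beside 6.09% of all genes lower and 12.7% higher. It was *Ndufaf1*, an early membrane arm assembly factor, with 14.6 against 11.8 CPM (−0.31, −0.52 to −0.10). The next lowest was *Ndufaf7*, a methyltransferase, with −0.18, and the highest were *Ecsit* and *Dmac1*, both with 0.19.

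Of 13 genes of mitochondrial transcription and RNA handling tested of 20 listed, 2 were higher past the fold in the obese library and 1 lower, shares near the 12.7% and 6.09% of all genes. *Tfb2m*, a transcription initiation factor of the mitochondrial genome, had 11.8 against 15.5 CPM (0.40, 0.19 to 0.61), and *Tfam*, which packages that genome and starts its transcription, 36.9 against 44.0 CPM (0.25, 0.13 to 0.37). *Hsd17b10*, a subunit of mitochondrial RNase P, had 107 against 87.3 CPM (−0.29, −0.37 to −0.22), and the next lowest, *Fastk*, −0.16. Between proliferating-like and naive- or memory-like cells 4 of the 13 were higher and 0 lower, a smaller share higher than the 41.6% of all genes.

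Regulators of respiratory genes were few at 10 CPM or more, 6 of 9 listed. *Hcfc1*, a transcriptional coregulator, was higher past the fold in the obese library, with 29.9 against 37.8 CPM (0.34, 0.21 to 0.47), followed by *Nrf1*, a transcription factor of respiratory genes, with 23.3 against 27.6 CPM (0.24, 0.09 to 0.39). *Myc* had the lowest ratio, −0.03, and *Esrra* the next, 0.02. *Ppargc1a*, the coactivator best known for driving mitochondrial biogenesis, was at 0 UMIs in the lean and 3 UMIs in the obese library.

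Nuclear genes of complexes II to V, the rest of the respiratory chain and the ATP synthase, were set beside the members. Between proliferating-like and naive- or memory-like cells 32 of their 38 nuclear genes were higher past the fold and 0 lower, beside the 41.6% and 10.9% of all genes, with a median of 0.94 beside 0.46. Between libraries their extremes were *Sdha* of complex II and *Cox7b* of complex IV, both with 0.20, and *Cox7c* of complex IV with −0.16 and *Cox5b* with −0.13. The other 6 genes of the mitochondrial genome, of complexes III, IV and V, had a median of 0.39 between libraries. Of these, 4 were higher past the fold and 1 was lower, beside 12.7% and 6.09% of all genes. *mt-Co3* was highest, with 2610 against 4102 CPM (0.65), and *mt-Co1* had 3031 against 2830 CPM (−0.10).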

How the data were processed

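Gene-by-cell matrices of UMI counts from 1 lean and 1 obese library were used. Per the labels and the file headers, the authors made these counts with Cell Ranger 6.0.2 on mm10, the UCSC name of GRCm38, and deposited them as raw whole numbers for 2697 and 2623 cells. Groups came from the labelled phenotype.

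Cells were filtered as described above and grouped in Seurat 5.3.0 from the most variable genes, without the members, the mitochondrial genes and the listed genes, and clusters were named from marker lists. Scrublet marked 2 of 4745 cells, too few to be taken as a working call, so no doublets were removed. UMIs were summed per library and cluster. Ratios and intervals were computed with scipy 1.17.1 and checked on simulated Poisson counts. The simulated counts held no variation between cells or libraries, so this check covers the calculation only. A gene was called past the fold at a log2 ratio of 0.25 or more either way between libraries, or 0.5 or more either way in both libraries between states, among genes at 10 CPM or more. With 1 library per diet no p-value was computed.

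The members, lists and rules were chosen with earlier results of these data known. Full values were given for the 7 *mt-Nd* genes, the nuclear core genes, the 3 highest and 3 lowest nuclear members between libraries and between proliferating-like and naive- or memory-like cells, and members past the fold in opposite directions in 2 named clusters. Of each other list the 2 highest and 2 lowest between libraries were named. Some items that these rules select are not reported here. Alternatives were TMM factors of edgeR 4.0.16, totals that leave out mitochondrial and ribosomal protein genes, means over cells, thinning to 2000 or 1000 UMIs, other limits on cells, genes and doublet scores, and another resolution of clustering. Leaving out the unnamed and the myeloid-like cluster, equal weight of the 4 named states, the largest finer cluster of each state and a total without mitochondrial genes were added after seeing the data. Promoters came from RefSeq (GRCm38.p6), and gene positions and mitochondrial sequences from GENCODE M21 (GRCm38), which held 99.61% of the gene IDs.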

Additional observations from a re-analysis of the deposited data

Results flagged for a closer look

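*mt-Nd6*, the only complex I gene on the minus strand of the mitochondrial genome, was past the fold in opposite directions in 2 cell states. Its log2 ratio of obese over lean was 0.57 (0.10 to 1.07) in interferon-stimulated-like cells, from 49 and 145 UMIs, and −0.51 (−0.94 to −0.09) in naive- or memory-like cells, from 138 and 74 UMIs. Both intervals leave out 0, which the rule for this flag required. They cover counting error of single libraries only, and the difference between the states was not tested.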

How the results depend on the processing

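The sums over all cells and those between proliferating-like and naive- or memory-like cells kept their sign under the alternatives run, and the values below moved beyond their counting intervals. The causes were not tested. With TMM factors, obese over lean was −0.092 for the nuclear and 0.21 for the mitochondrial sum, and proliferating-like over naive- or memory-like was 0.48 and 0.59 (lean, obese library) for the nuclear and −0.97 and −0.78 for the mitochondrial sum. Without mitochondrial and ribosomal protein genes in the total, the state values were 0.31 and 0.43, and −1.14 and −0.94. As a mean over cells, obese over lean was −0.030 and 0.16, the nuclear state value of the obese library 0.86 and the mitochondrial ones −0.79 and −0.58. Thinned to 2000 UMIs, the mitochondrial obese over lean value was 0.17, and the state values 0.74 and 0.87, and −0.80 and −0.59. Thinned to 1000 UMIs, obese over lean was −0.024 and 0.15, the nuclear state value of the lean library 0.77 and the mitochondrial ones −0.81 and −0.57. Over all deposited cells, obese over lean was −0.017 and 0.28. Without the member with the most UMIs, the mitochondrial sum gave 0.23 for obese over lean and −0.57 between states in the obese library. At resolution 0.8 the state values were 0.58 and 0.58, and −0.71 and −0.45. With equal weight of 4 clusters, an alternative chosen after seeing the data, the nuclear obese over lean value was −0.080. *Ndufs1* between states in the obese library, past 0.5 in that library alone and so not called, turned to −0.88 with 1000 UMIs per cell. That value comes from a single random draw of few UMIs. Over the 84 other results, 644 of 908 values under alternatives stayed within the counting interval, and 14 of these 644 changed sign. Another 239 left the interval in the same direction and 25 left it with a change of sign.

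No paired analysis was possible because each diet had 1 library. Counting error is the only error these data give: neither mice nor libraries were repeated, so a difference between libraries cannot be told apart from a technical one. Genes of few UMIs, *mt-Nd6* and *Ndufs1* above all, are limited by depth within clusters, and a CPM is a share of a total that ribosomal protein genes dominate.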

Other observations

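Cells left out by the filter held complex I transcripts in different proportions from the cells kept. In the 83 lean and 121 obese cells with 50000 or more UMIs, nuclear members summed to 8641 and 8734 CPM and *mt-Nd* genes to 3844 and 4601 CPM, near the levels of proliferating-like cells.

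The 30 dendritic- or myeloid-like cells, 9 lean and 21 obese, held 7708 and 6502 CPM of nuclear members and 5200 and 5265 CPM of *mt-Nd* genes. In the unnamed cluster of low depth, nuclear members summed to 3112 and 3893 CPM, a log2 ratio of 0.32 (0.25 to 0.40). There 22 of the 36 were higher past the fold and 0 lower, beside 2104 of 6899 genes tested that were higher and 1905 that were lower. Nuclear genes of complexes II to V had 31 of 38 higher and 1 lower, with a median of 0.52 beside 0.31 over the 36. Red cell markers, at 0 UMIs in the lean library, summed to 10335 CPM in the obese cells of that cluster.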
